A study of Homo sapiens with 4 samples.

Results

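AGS cells, an established human gastric cancer cell line, gave 2 of the 4 libraries of the series, and the miRNAs that these pull-downs recovered with either probe against the FN1 3′-UTR were compared. miRNAs were chosen as the mature names with at least 10 counts in one of the 2 AGS libraries, which gave 230 of the 843 distinct names in the table. Of these, 199 were known miRNAs and 31 were predicted by the authors' pipeline. Of the names nearest this minimum, 9 had a highest count of 10 and were used, and 8 had a highest count of 9 and were not. Another 229 names were listed in an AGS library with fewer than 10 counts, and 384 were listed in neither. The 230 held 99.98% of the AGS counts with the negative probe and 99.96% of those with the positive probe.

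Both AGS groups were made from cells that carried a stable lentiviral overexpression of the FN1 3′-UTR, so the added UTR was shared by the controls. By their labels the groups differed only in the probe, which the labels call positive or negative to the FN1 3′-UTR sequence. Biotinylated probes transcribed in vitro were held on streptavidin magnetic beads, incubated with cell lysate and washed, and the bound RNA was eluted and sequenced as small RNA. The other 2 libraries came from the same assay in HGC27, another gastric cancer line with the same overexpression. The labels' protocol names the transcript or its antisense on the beads and the study's methods name antisense RNA, but neither says which strand the positive or the negative probe was. Each AGS group was 1 library with no replicate, so the probes could not be tested within AGS. A test over both lines was not made, and every difference below is between these libraries. Intervals are exact 95% intervals from the counts. They cover counting error only, since PCR reads without molecular identifiers are not independent molecules.

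A mature miRNA is a short RNA that guides Argonaute proteins to target transcripts, mostly through its seed, bases 2 to 8, and miRNAs with 1 seed form a family. It is cut from the 5′ (5p) or the 3′ (3p) arm of a hairpin, and of the arm pair usually only 1 strand is kept. Hairpins that lie close together are often transcribed as 1 RNA, so family, arm and cluster describe shared targets, shared processing and shared transcription. A pull-down reads the miRNAs that stay on the beads, not their level in the cell. The amount of a miRNA in the lysate and its retention by a probe cannot be told apart in these libraries.

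The sequences below carry the main contrasts, with the seed in capitals. They are printed as deposited, and each known one was the same as its RefSeq entry (GRCh38.p14). The let-7 family, regulators of developmental timing and repressors of growth genes, held the largest gain with the positive probe.
let-7a-5p: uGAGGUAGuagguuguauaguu
let-7b-5p: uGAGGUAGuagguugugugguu
let-7c-5p: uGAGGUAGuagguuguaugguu
let-7d-5p: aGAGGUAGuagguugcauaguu
let-7e-5p: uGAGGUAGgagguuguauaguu
let-7f-5p: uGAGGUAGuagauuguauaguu
let-7g-5p: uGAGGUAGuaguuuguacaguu
let-7i-5p: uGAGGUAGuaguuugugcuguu
miR-98-5p: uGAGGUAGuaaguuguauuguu

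miR-423 is shown because its arms went apart more than those of any other hairpin used, and miR-574 and miR-30e because they show the same split with 5p and with 3p as the higher arm.
miR-423-5p: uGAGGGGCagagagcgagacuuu
miR-423-3p: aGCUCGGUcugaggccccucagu
miR-574-5p: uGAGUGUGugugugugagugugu
miR-574-3p: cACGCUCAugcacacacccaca
miR-30e-5p: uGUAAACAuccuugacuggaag
miR-30e-3p: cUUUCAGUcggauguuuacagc

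The miR-200 family and miR-203a-3p, both known as keepers of the epithelial state, and the miR-17 family, products of clusters tied to proliferation, had far smaller shares with the positive probe. The entry given as shortened miR-203a-3p is a predicted one that lacks the first base of miR-203a-3p, which moves its seed by 1 base.
miR-200b-3p: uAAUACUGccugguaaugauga
miR-200c-3p: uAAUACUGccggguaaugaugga
miR-429: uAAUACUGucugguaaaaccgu
miR-203a-3p: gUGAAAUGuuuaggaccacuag
shortened miR-203a-3p: uGAAAUGUuuaggaccacuag
miR-17-5p: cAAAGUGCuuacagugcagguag
miR-20a-5p: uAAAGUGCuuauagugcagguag
miR-93-5p: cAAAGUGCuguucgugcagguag
miR-106b-5p: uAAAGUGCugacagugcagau

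The miR-372 family is typical of embryonic stem cells and germ cell tumours. It supplied 81.0% of the AGS counts with the negative probe and 37.6% with the positive probe. miR-99b-5p and miR-125a-5p flank let-7e-5p in 1 cluster.
miR-372-3p: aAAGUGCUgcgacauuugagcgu
miR-373-3p: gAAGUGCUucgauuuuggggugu
miR-302b-3p: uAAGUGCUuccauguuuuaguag
miR-99b-5p: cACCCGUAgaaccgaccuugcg
miR-125a-5p: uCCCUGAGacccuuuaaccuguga

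miR-372-3p alone made up 80.8% of the AGS counts with the negative probe (2388335 of 2955078; 95% interval 80.8 to 80.9) and 37.5% with the positive probe (572497 of 1527390; 37.4 to 37.6). In HGC27 it held 0.178% and 0.300%. Its share in AGS was thus 2.16-fold lower with the positive probe, a log2 ratio of −1.11. Because shares must sum to the whole, the lower share of miR-372-3p alone raises the log2 ratio of every other AGS miRNA by 1.70 (3.26-fold) against totals from which miR-372-3p is left out. Log2 ratios below are of the share with the positive probe over the share with the negative probe, on the full totals, with counts under 3 set to 3. The values without miR-372-3p are given wherever the direction or the 2-fold call depends on them.

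**Figure D1:**
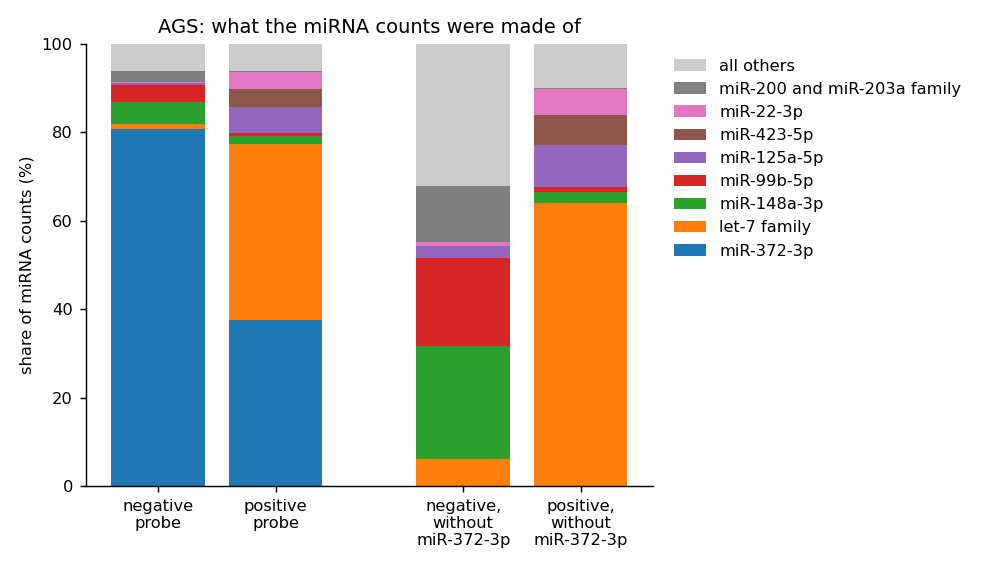
Stacked bars show the share of AGS miRNA counts in percent for each probe, on the full totals (left pair) and with miR-372-3p left out (right pair). Without miR-372-3p the let-7 family goes from 6.14% to 64.0%, while miR-148a-3p and miR-99b-5p shrink from 25.4% and 20.1% to 2.58% and 1.17%.

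On the full totals 108 of the 230 miRNAs had a share at least 2-fold higher when the probe was positive (47.0%) and 67 at least 2-fold lower (29.1%), and the median log2 ratio was 0.74. Once miR-372-3p was left out, 60 of the other 229 were higher (26.2%), 111 lower (48.5%), and the median was −0.95. The balance of higher and lower miRNAs therefore turned with the scaling. The 60 miRNAs higher without miR-372-3p were also among the 108, and 66 miRNAs were lower on both scalings. In all, 50 miRNAs changed sign, but none went from at least 2-fold higher to at least 2-fold lower. At 4-fold, 79 were higher and 37 lower on the full totals, and 37 higher and 86 lower without miR-372-3p. The count minimum was passed with both probes by 134 miRNAs, with the positive probe only by 45 and with the negative probe only by 51, and such miRNAs had to lean to the side that let them in. Of the 134, 63 were higher and 33 lower on the full totals, and 25 and 60 without miR-372-3p. The exact interval of the ratio left out equality for 192 of the 230, which speaks of counting error and not of replicate spread.

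The positive-probe library was less dominated by few miRNAs. The top 5 took 92.4% of its negative counterpart's counts and 72.0% of its own, and the top 15 took 97.4% and 96.4%. With the positive probe, miR-372-3p was followed by let-7i-5p with 14.2%, let-7f-5p with 8.88% and miR-125a-5p with 5.96%. With the negative probe it was followed by miR-148a-3p with 4.87% and miR-99b-5p with 3.85%.

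**Figure D2:**
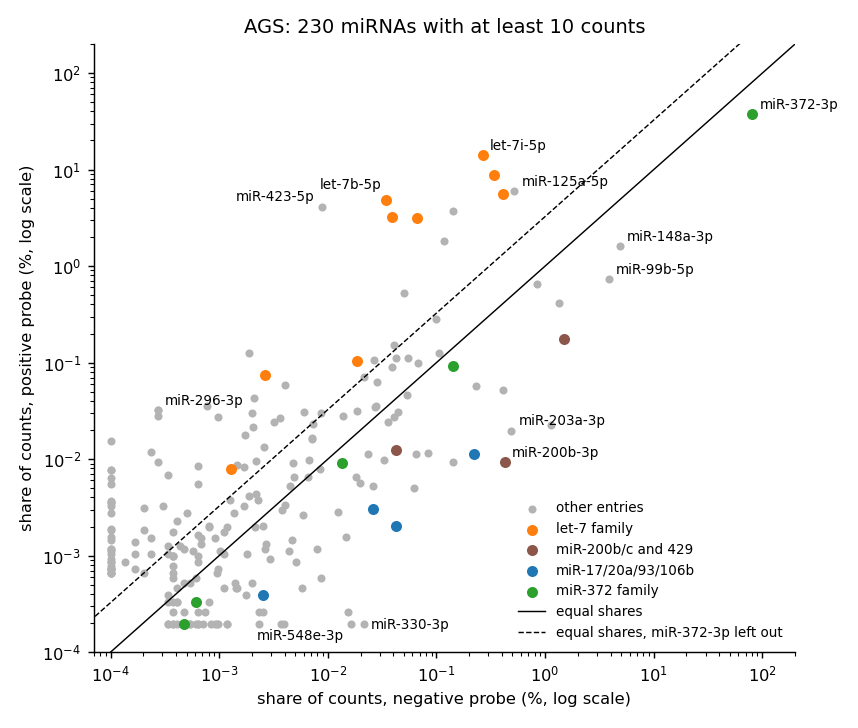
Each of the 230 miRNAs is a point at its share of AGS counts with the negative (x) and positive (y) probe, in percent on log axes, with counts under 3 drawn at 3; the solid line marks equal shares and the dashed line equal shares once miR-372-3p is left out. The let-7 members and miR-423-5p lie above both lines or, for let-7c-5p and let-7d-5p, less than 2-fold above the dashed one, and the miR-17 and miR-200b members below the solid line.

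Among families that were higher, let-7 gained the most counts. Its 9 members together went from 34791 counts (1.18%) with the negative probe to 610892 (40.0%) with the positive probe, a log2 ratio of 5.09 (5.07 to 5.10), and 3.38 without miR-372-3p. All 9 were at least 2-fold higher on the full totals, against 47.0% of all miRNAs used, and 7 were without miR-372-3p. let-7i-5p, the member with most positive-probe counts, had 7864 counts with the negative and 216292 with the positive probe (log2 5.73, 5.70 to 5.77). let-7b-5p was highest in ratio, from 1003 to 74104 counts (7.16, 7.07 to 7.25), and let-7e-5p followed, from 1148 to 49613 (6.39).

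The family was far from uniform. let-7a-5p went from 1953 to 48153 counts (log2 5.58), let-7f-5p from 10005 to 135631 (4.71), and let-7g-5p, the member with most negative-probe counts, from 12159 to 84264 (3.75). At the low end stood let-7d-5p, from 543 to 1584 (2.50), and let-7c-5p, from 38 to 121 (2.62, 2.09 to 3.19), neither of which reached 2-fold without miR-372-3p. let-7b-5p and let-7c-5p, whose printed sequences are close, thus differed by more than their counting intervals. How reads that fit several members were assigned is not given in the sources used here. let-7a-5p and let-7f-5p come from several hairpins, and their counts cannot be divided among loci.

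Other miRNAs with large positive-probe shares were mostly alone in their seed families. miR-423-5p, often used as a reference miRNA, went from 259 counts (0.00876%) to 62855 (4.12%), a log2 ratio of 8.88 (8.70 to 9.06), the highest of the 230. miR-22-3p went from 4209 to 56773 counts (4.71), and miR-24-3p from 3499 to 27486 (3.93). miR-125a-5p, the mammalian kin of lin-4, went from 15304 to 91004 counts (3.52), while its partner in seed, miR-125b-5p, had only 24 and 31 (1.32, and −0.38 without miR-372-3p). All of these except miR-125b-5p remained at least 2-fold higher without miR-372-3p.

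Rarer miRNAs also had high ratios. miR-629-5p had 3 counts with the negative and 236 with the positive probe, 152-fold higher (interval 51.4 to 743). miR-296-3p had 8 and 487 (log2 6.88, 5.89 to 8.10), and miR-1180-3p 55 and 1906 (6.07, 5.68 to 6.48). miR-4664-3p went from 23 to 548 (5.53) and was listed in neither HGC27 library. miR-221-3p and miR-222-3p, a pair of regulators of the cell cycle inhibitor CDKN1B, together went from 70 to 355 counts (3.29).

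Lower families included those of the epithelial list. miR-200b-3p went from 12532 to 142 counts (log2 −5.51, −5.76 to −5.27), miR-200c-3p, the most abundant of them, from 43828 to 2699 (−3.07), and miR-429 from 1264 to 191 (−1.77). As a family the 3 went from 1.95% to 0.199% of counts. The related seed of miR-200a-3p and miR-141-3p went from 1928 to 171 counts (−2.54). The 5p arms did not follow on the full totals. miR-200a-5p had 548 and 479 counts (0.76) and miR-200b-5p 252 and 122 (−0.09), or −0.95 and −1.80 without miR-372-3p. The arms of miR-200b differed 42.7-fold in ratio. miR-203a-3p had 14347 and 302 counts (−4.62), and its shortened form 33453 and 346 (−5.64), so the predicted entry held more reads than the known one with either probe.

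The miR-17 seed family (miR-17-5p, miR-20a-5p, miR-93-5p and miR-106b-5p) was lower in every member used, with log2 ratios from −4.40 for miR-17-5p to −2.69 for miR-106b-5p. miR-20a-5p alone went from 6478 to 171 counts (−4.29). miR-15b-5p and miR-16-5p, which target cell cycle and survival genes such as BCL2, went from 560 to 6 counts together (−5.59, −7.04 to −4.46). miR-103a-3p and miR-107, encoded in introns of the PANK genes, went from 12259 to 806 (−2.97). The lowest ratio of all was that of miR-330-3p, with 635 counts against 3 (−6.77, −9.06 to −5.22), followed by miR-548e-3p with 485 against 3 (−6.38).

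The miR-148/152 family, repressors of DNMT1, went from 144830 to 24683 counts (log2 −1.60), with members between −2.30 and −1.28. miR-7-5p, a repressor of EGFR signalling, went from 39419 to 6304 (−1.69), and miR-26a-5p from 6892 to 877 (−2.02). The miR-99/100 family did not move as 1 set: miR-99b-5p was lower (113717 to 11201, −2.39), miR-99a-5p had 35 and 30 counts (0.73, −0.02 to 1.48, and −0.98 without miR-372-3p), and miR-100-5p was higher (1153 to 1374, 1.21). miR-100-5p lost that direction without miR-372-3p (−0.50).

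The kin of miR-372-3p kept close to it. miR-373-3p went from 4181 to 1404 counts (log2 −0.62), miR-302b-3p from 396 to 140 (−0.55), and miR-371a-5p, from the same cluster but with another seed, from 25095 to 9942 (−0.38). All 3 were less than 2-fold lower on the full totals and more than 4-fold lower without miR-372-3p, at −2.33, −2.25 and −2.09.

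Over all seeds, the known miRNAs formed 153 families, of which 25 had 2 or more members used. In 6 of these every member was at least 2-fold higher and in 11 every member lower, and 2 held members past 2-fold in both directions. Without miR-372-3p these numbers were 2, 13 and 0. The same counts for single miRNAs, 47.0% higher and 29.1% lower, show how common either call was.

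**Figure D3:**
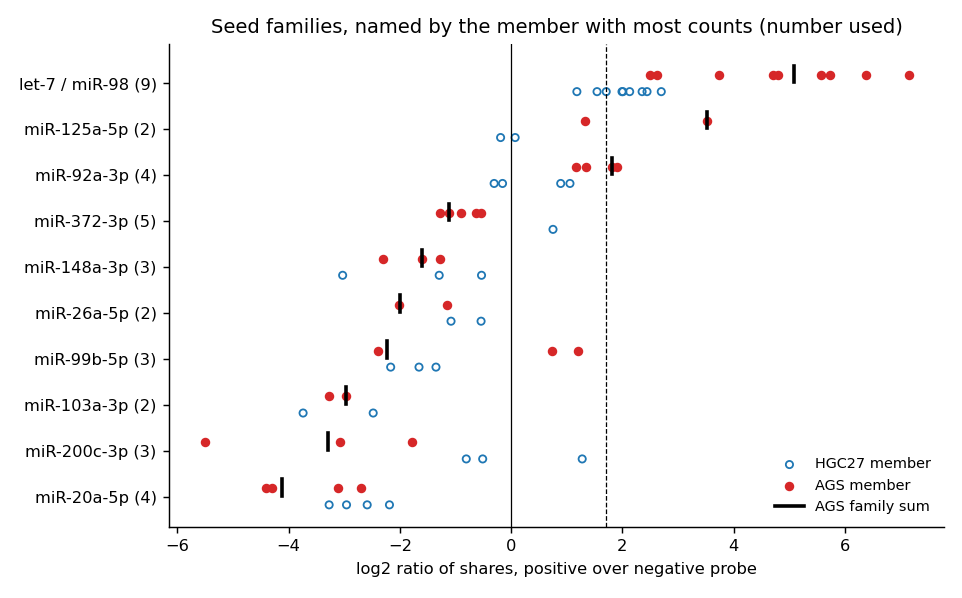
Members of the 10 seed families with at least 2 members used and at least 0.1% of counts in an AGS library are drawn at their log2 ratio of shares, AGS filled and HGC27 open (entries with at least 10 counts in that line); bars mark the AGS family sum, and the dashed line marks AGS equality without miR-372-3p. All let-7 points lie above 0 in both lines and all miR-20a-5p family points below, while the miR-99b-5p family spans 0 in AGS.

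By arm, 5p miRNAs made up 9.01% of AGS counts with the negative probe and 53.1% with the positive probe, and 3p miRNAs 89.6% and 46.1%. Without miR-372-3p the 5p share went from 47.0% to 85.0% and the 3p share from 46.0% to 13.8%. The let-7 family, all 5p, went from 6.14% to 64.0% on these totals. That gain is larger than the gain of the 5p arm as a whole. Among single miRNAs, 48 of 93 on the 5p arm were at least 2-fold higher and 24 lower (median log2 1.02), against 36 and 31 of 87 on the 3p arm (median 0.00), where all miRNAs gave 47.0% and 29.1%. The balance turned on both arms without miR-372-3p, with 24 higher and 42 lower on the 5p arm and 20 and 45 on the 3p arm. Of the 19 known miRNAs with no arm in their name, 4 were higher and 10 lower.

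Both arms were used for 27 pairs, with miR-181a-5p in 2 of them, and the arms of 25 of them differed by at least 2-fold in ratio, a difference that no scaling of the libraries can change. The median distance was 4.23 on the log2 scale, where the quartiles of all 230 log2 ratios were −1.31 and 2.83. The 5p arm was the higher one in 16 of the 25 and the 3p arm in 9. In 11 pairs one arm was at least 2-fold higher and the other at least 2-fold lower on the full totals, and in 7 without miR-372-3p. Most of these pairs held an arm that passed the count minimum with just the positive or just the negative probe. That filter favours the side of that probe, so these counts are partly set by it. With at least 100 counts for both arms, 10 of 11 pairs were at least 2-fold apart.

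miR-423 stood furthest apart. Its 5p arm held 19.6% of the pair's counts with the negative probe and 99.4% with the positive probe, as miR-423-3p went from 1065 to 370 counts (log2 −0.57) while miR-423-5p went to 62855. The arms' ratios differed 699-fold. miR-574-5p went from 29 to 415 counts (4.79) and miR-574-3p from 35 to 2. For miR-28 the 5p arm went from 76 to 202 and the 3p arm from 1830 to 76, which turned the pair from 3.99% to 72.7% 5p. miR-140-5p was not listed with the negative probe and had 12 counts with the positive one, while miR-140-3p went from 170 to 7.

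In other pairs the 3p arm was the higher one. miR-30e-3p went from 8 to 144 counts (log2 5.12) and miR-30e-5p from 19 to 4 (−1.30, −3.31 to 0.29). The interval of miR-30e-5p included equality, and each arm passed the count minimum with just the positive or just the negative probe. miR-335-3p went from 62 to 657 (4.36), and miR-335-5p from 21 to 0. miR-106b-3p went from 9 to 50 (3.43) and miR-106b-5p from 75 to 6. A count of 0 with the positive probe allows a share of up to 0.000196%. For miR-99b, whose 5p arm was lower, the 3p arm went from 640 to 1095 counts (1.73). Without miR-372-3p, miR-99b-3p (0.02) and miR-28-5p (0.66) were no longer 2-fold higher.

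**Figure D4:**
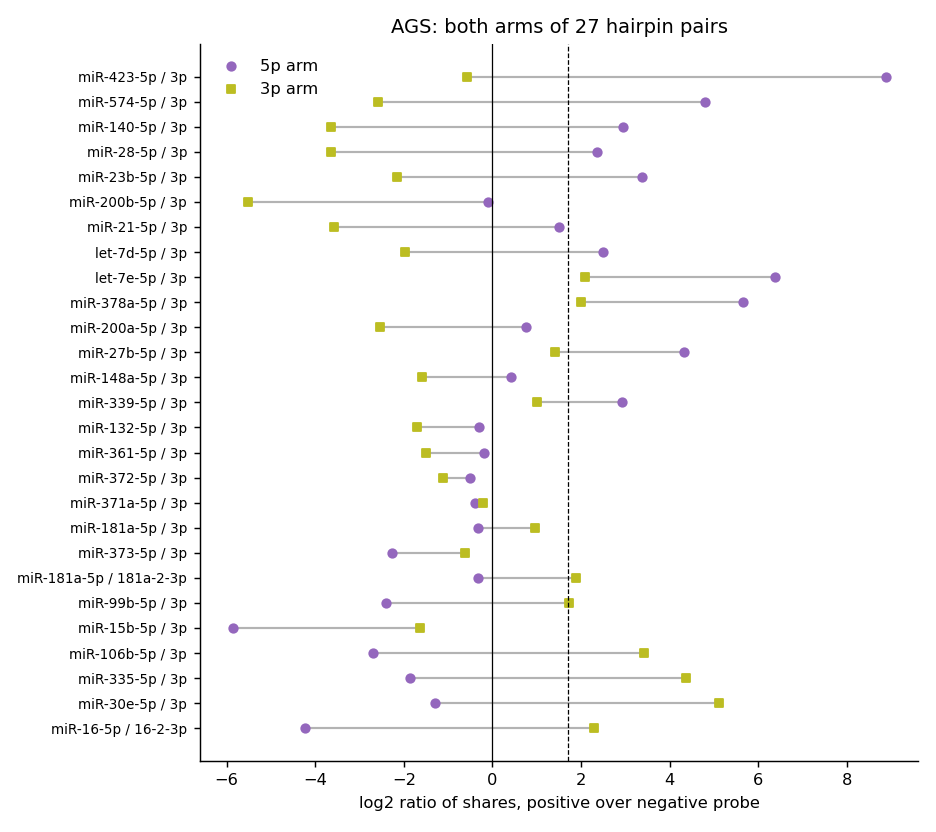
The 27 arm pairs are ordered by the distance between their AGS log2 ratios of shares, with the 5p arm as a circle and the 3p arm as a square; the solid line marks equal shares and the dashed line equality without miR-372-3p. The widest span is that of miR-423 (8.88 against −0.57), and pairs at the bottom, from miR-16 to miR-99b, have the 3p arm higher.

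RefSeq gave a position for 175 of the 205 known hairpins used, and hairpins at most 10000 bases apart on 1 strand formed 26 clusters with 2 or more miRNAs, each hairpin being represented by its arm with more AGS counts. In 21 clusters the members' ratios differed by at least 2-fold and in 15 by at least 4-fold, with a median range of 3.35 on the log2 scale. The lower and upper quartiles of all 230 log2 ratios were −1.31 and 2.83, so spreads of this size were common among all miRNAs used. In 9 clusters members were past 2-fold in both directions (6 without miR-372-3p). Most of these held a member that passed the count minimum with just the positive or just the negative probe, such as miR-15b-5p with 451 and 4 counts. That filter favours the side of that probe, so this count is partly set by it. Of the 13 clusters whose miRNAs each come from 1 hairpin only, 10 were at least 2-fold apart.

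The widest range lay in 1 short cluster. miR-99b, let-7e and miR-125a are spaced over 728 bases of an intron of SPACA6 on the plus strand of chromosome 19 (GRCh38.p14, 51692612 to 51693339). From first to last, their 5p arms had log2 ratios of −2.39, 6.39 and 3.52, a range of 8.78 that does not depend on the scaling, and each comes from 1 hairpin. The same 3 had −2.16, 2.44 and 0.07 in HGC27, in the same order.

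The miR-17-92 cluster, in an exon of MIR17HG on chromosome 13 (91350605 to 91351391), gave a range of 6.31. miR-17-5p stood at −4.40 and miR-20a-5p at −4.29, miR-18a-5p at 0.40 with 19 and 13 counts (−1.30 without miR-372-3p), and miR-92a-3p, at the end of the cluster, at 1.91 (1188 to 2303 counts). In the miR-106b-25 cluster in an intron of MCM7 on chromosome 7, miR-106b-5p (−2.69) and miR-25-3p (1.81, 256 to 464 counts) were split the same way. miR-25-3p shares its seed with miR-92a-3p. Both contrasts set 5p arms against 3p arms, and miR-106b-3p stood at 3.43. Other 3p members of miR-17-92 were lower, miR-19a-3p at −2.11 (25 and 0 counts) and miR-19b-3p at −1.71 (19 and 3). Without miR-372-3p, miR-92a-3p and miR-25-3p stood near equality, at 0.20 and 0.11.

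In the intron of SMC4 on chromosome 3, miR-15b-5p (−5.86) and miR-16-2-3p (50 to 126 counts, 2.29, and 0.58 without miR-372-3p) lay 8.15 apart, but these are different arms. Their 5p arms were both lower. In the NFYC intron on chromosome 1, miR-30c-5p (−2.14) and miR-30e-3p likewise differ in arm. miR-23b-3p (52 to 6 counts, −2.16), miR-27b-3p (1.40, and −0.30 without miR-372-3p) and miR-24-3p (3.93) stood higher in that order along their cluster on chromosome 9, though miR-24-3p has another hairpin on chromosome 19.

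Other clusters kept together. The hairpins of miR-371a, miR-372 and miR-373, within 1099 bases of chromosome 19, ranged over 0.72 on the log2 scale. miR-222-3p and miR-221-3p differed by 0.24 and let-7f-5p and miR-98-5p, in an intron of HUWE1, by 0.10. In each of these the members share a seed or, for miR-371a-5p, lie beside such a pair.

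**Figure D5:**
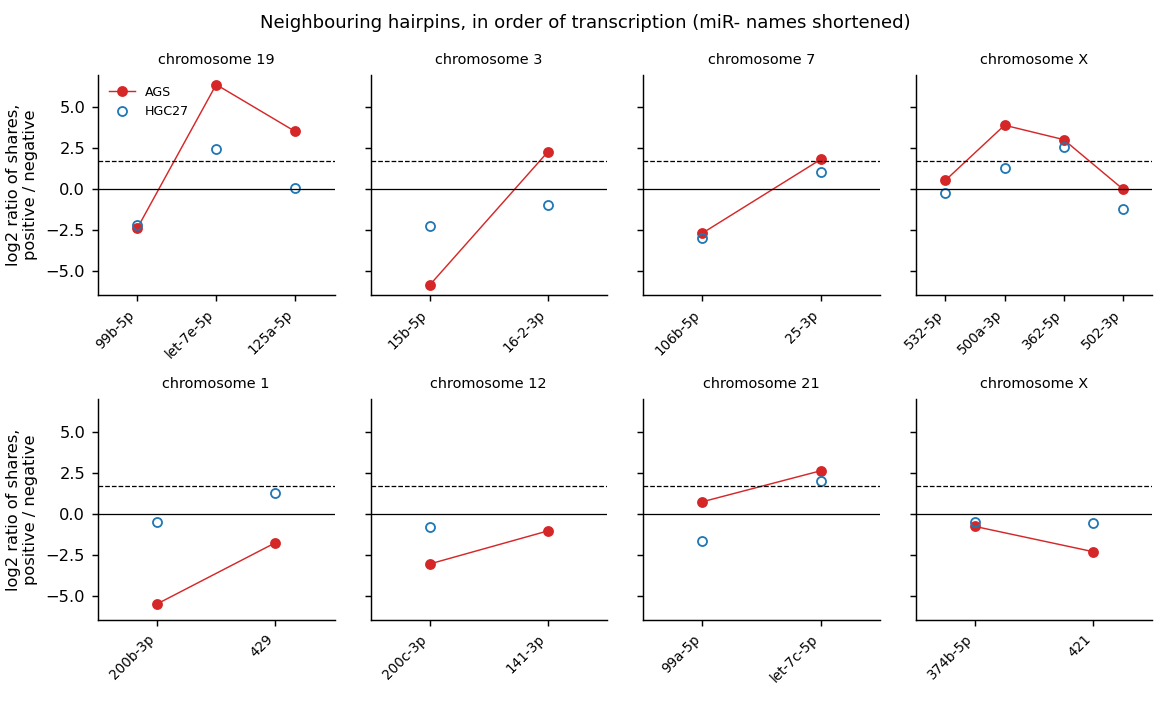
Each panel is 1 of the 8 clusters with the widest AGS range among those whose miRNAs come from 1 hairpin only, with members in order of transcription on x and the log2 ratio of shares on y, AGS as joined filled points and HGC27 as open points where it had at least 10 counts. The chromosome 19 panel runs from −2.39 over 6.39 to 3.52; the dashed line marks AGS equality without miR-372-3p.

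In sequence, miRNAs higher with the positive probe held fewer A. Median A content was 19.0% in the 108 higher and 30.4% in the 67 lower miRNAs, and median G content 27.5% and 22.7%. These are descriptions, since miRNAs of 1 family share sequence and all come from the same 2 libraries. Within the let-7 family, let-7b-5p held the most G (10) and had the highest ratio, but let-7c-5p, with 9, stood near the lowest.

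The first bases were looked at after the values were seen. Of the 18 miRNAs used that begin with UGAG, 17 were at least 2-fold higher and the remaining one, miR-339-3p, stood at 1.00, just under the threshold. Of all miRNAs used 47.0% were higher. UGAG begins 3.20% of all 843 names, 8 of the 18 have the let-7 seed, and 3 passed the count minimum with the positive probe only. Without miR-372-3p, 11 of the 18 were higher and 0 lower, against 26.2% and 48.5% of all. All 4 entries beginning with UGGC were higher as well. Among them are predicted entries with the same sequence and the same 2 and 117 counts, which passed the minimum with the positive probe only. All 4 beginning with UCAG, which include the miR-148/152 family, were lower, against 29.1% of all. So were all 4 beginning with CAAA, which include miR-17-5p and miR-93-5p. miR-548n in that group, with 16 and 0 counts, passed the minimum with the negative probe only. Several other starts gave mixed calls, such as UCCC with 3 higher and 1 lower of 5, and UUCA with 1 and 2 of 4.

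Beside AGS, the HGC27 libraries gave smaller ratios on the full totals. Of the 193 miRNAs with at least 10 counts in both lines, 49 were higher by at least 2-fold in HGC27 (25.4%) and 57 lower (29.5%), and the distance from equality was wider in AGS for 137, with medians of 1.81 in AGS and 1.14 in HGC27 on the log2 scale. Of the 88 of these higher in AGS, 46 were also higher and 7 lower in HGC27, and of the 59 lower in AGS, 41 were lower and 1 higher. Leaving out miR-372-3p lowers every other AGS log2 ratio by 1.70 and hardly moves those of HGC27. These counts and medians therefore depend on the scaling, and the comparison was not repeated without miR-372-3p. The lines share no library. miR-423-5p went from 660 to 23084 counts in HGC27 (log2 5.29), the let-7 family had 2.07 and the miR-17 family −2.99. The miR-200b seed family, with 1866 and 971 counts there, had −0.78.

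The label of the cells was checked on miRNAs known for cell types. The epithelial list of 7, of which miR-205-5p was not in the table, held 2.50% of AGS counts with the negative probe and 0.229% with the positive probe, against 0.156% and 0.0792% in HGC27. The 6 mesenchymal miRNAs held 0.00274% and 0.0109% in AGS, with miR-199b-5p and miR-145-5p at 0. The lists for blood, muscle, liver and nerve cells each held less, at most 0.00190% and 0.00419%, the values of the muscle miRNAs. The gut epithelial miR-192-5p and miR-194-5p summed to 0.0367% and 0.0634%, and miR-215-5p of that list was not in the table. The sum hides a split. miR-192-5p had 832 and 959 counts (log2 1.16, and −0.55 without miR-372-3p), and miR-194-5p had 253 and 9 (−3.86). Of the epithelial list, miR-141-3p had 12 counts and 0.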

How the data were processed

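Small RNA from FN1 3′-UTR pull-downs was sequenced as 1 library per group, and the members, lists and rules used here were chosen with earlier results of these data known. The authors deposited raw tag counts per pair of mature miRNA and precursor, and a score, tags scaled to 1000000 and rounded to whole numbers, which served only as an alternative. The submitters' processing notes name cutadapt 1.9.3, Novoalign 3.02.12 and the hg38 genome, and how reads matching several miRNAs were assigned is not given in the sources used here. The lowest count listed was 2, and blanks were taken as 0.

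From the deposited counts, 1 row was kept per mature name (901 pairs, 843 names). Table totals in AGS were 2955078 (negative probe) and 1527390 (positive probe), or 566743 and 954893 without miR-372-3p, and in HGC27 1452832 and 1296853. miRNAs with at least 10 counts in an AGS library were used. A share is a count over the table total. Counts under 3 were set to 3 for ratios, so a count of 0 allowed shares of up to 0.000102% and 0.000196%. Intervals are exact (Clopper-Pearson, 95%), from the split of both counts. A miRNA was called at 2-fold. The calculation was tested on simulated data. Scaling by TMM (edgeR 4.0.16) and by DESeq2 1.42.0 size factors over 4 libraries served as alternatives, with no count test. Seeds were bases 2 to 8 of the deposited sequences, and 178 of 199 known miRNAs used matched RefSeq, all with the same sequence. Hairpin positions came from RefSeq and host genes from GENCODE. Named miRNAs were the given markers, the 15 with the largest share, the 12 highest and 12 lowest with at least 100 counts (5 and 5 predicted), members of families with at least 0.1% of counts, and the 10 widest arm pairs and clusters. First bases and the content of A were looked at after the values were seen. Analyses used Python 3.11.15 with pandas 2.3.3 and scipy 1.17.1.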

Additional observations from a re-analysis of the deposited data

Results flagged for a closer look

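The 9 miRNAs given here, all of them named ones, had AGS and HGC27 ratios of opposite sign. Their intervals left out equality in each line. They are not the only such miRNAs. For example, miR-378a-3p stood at 1.99 in AGS and −0.39 in HGC27 on the log2 scale, and miR-125b-5p at 1.32 and −0.19. The difference between the lines was not tested, since each group is 1 library. miR-372-3p stood at −1.11 in AGS and 0.75 in HGC27 on the log2 scale, and miR-423-3p at −0.57 and 0.63. A predicted miRNA with 1202 and 421 counts in AGS had −0.56 and 0.98. Without miR-372-3p in the totals miR-423-3p and this predicted miRNA kept their sign, at −2.28 and −2.27 in AGS.

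The other 6 were higher in AGS and lower in HGC27. miR-16-2-3p had 2.29 and −0.97, miR-92a-3p 1.91 and −0.15, and miR-92b-3p 1.17 and −0.30. miR-100-5p had 1.21 and −1.35, a predicted miRNA with 211 and 253 counts in AGS 1.21 and −1.13, and miR-532-5p 0.53 and −0.22. Without miR-372-3p, miR-16-2-3p and miR-92a-3p stayed higher in AGS (0.58 and 0.20), while miR-92b-3p (−0.53), miR-100-5p (−0.50), the predicted miRNA (−0.49) and miR-532-5p (−1.17) turned to the sign they had in HGC27.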

How the results depend on the processing

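With 1 library per group, none of these settings carries replicate error. The let-7 family was higher under every scaling, at log2 5.09 on the full totals, 3.38 without miR-372-3p, 4.76 without miR-372-3p and let-7, 4.16 with TMM, 4.53 with DESeq2 size factors and 4.88 on the deposited score plus 1. The median of the 230 miRNAs (0.74) turned to −0.95 without miR-372-3p and to −0.18 with TMM, and was 0.34 without miR-372-3p and let-7 (220 miRNAs), 0.18 with DESeq2 size factors, 0.42 on the score, 0.95 with no filter (459 names), 0.54 with at least 100 counts and 0.54 for known miRNAs.

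Against 108 higher and 67 lower, 60 were higher and 111 lower without miR-372-3p, 173 higher with no filter, 52 higher and 37 lower with at least 100 counts (109 miRNAs tested), and 37 lower at 4-fold. TMM gave 80 higher and 93 lower and DESeq2 size factors 88 and 82. With at least 100 counts, 10 of 11 arm pairs and 12 of 14 clusters were still at least 2-fold apart, against 25 of 27 and 21 of 26. No paired analysis was possible because each AGS probe had 1 library, and a fit that pairs the probes over both lines was not run.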

Other observations

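The 31 predicted entries used held 1.26% of the negative-probe and 0.723% of the positive-probe counts. Of these, 15 passed the count minimum with the positive probe only and 5 with the negative probe only. Of the 11 that passed with both, 5 were higher by at least 2-fold and 2 lower, and 1 and 5 without miR-372-3p. Among all 134 miRNAs that passed with both, 63 were higher and 33 lower, and 25 and 60 without miR-372-3p. The predicted entries were thus near the shares of all.

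Some predicted entries were end variants of known miRNAs. The variant of miR-10a-5p that lacks its first base went from 1478 to 8124 counts (log2 3.41), while miR-10a-5p itself went from 814 to 547 (0.38). Without miR-372-3p these were 1.71 and −1.33. The same kind of variant of miR-203a-3p was lower than the known form by 1.03, and that of miR-10b-5p had 19 and 15 counts (0.61) against 24 and 30 (1.27), or −1.09 and −0.43 without miR-372-3p. The variant of miR-629-5p with 1 more base at its 3′ end had 8 and 432 counts (6.71). In the 26 arm pairs whose arms differed in A content, the arm richer in A had the lower ratio in 18. The arm richer in G had the higher ratio in 12 of 23. These counts were made after the values were seen.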
